A study of Rattus norvegicus with 6 samples.

Results

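The 9 genes described here encode parts of the major histocompatibility complex (MHC) antigen presentation pathways. They are B2m, H2-K1, H2-D1, Tap1 and Tap2 of class I, and H2-Aa, H2-Ab1, H2-Eb1 and Cd74 of class II. They were chosen by symbol from the 32930 genes listed in the table, each on 1 row, and all 9 were among the 18455 genes with enough counts to be tested. Liver RNA-seq was available from 3 HFD animals, kept on a high-fat diet with the vehicle 0.5% CMC-Na, and from 3 HTG animals, kept on the same diet with Huazhuo Tiaozhi granule (HTG), a herbal formula. Per the sample records, the interventions lasted 12 weeks. In the paper's rat experiment the diet lasted 12 weeks, and gavage began only after the model had been established on it. All 6 animals were fed the high-fat diet, so no library shows a normal diet. The sample labels call the animals rats, the study's RNA-seq methods name C57BL/6 J mice, and the gene rows carry mouse Ensembl identifiers. The treatment label of the HTG animals is spelled HCG, whereas their titles read HTG. Age and sex were not given in the labels, and each library was 1 of 6 animals.

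Class I molecules are found on nearly all nucleated cells. Their heavy chain pairs with beta-2-microglobulin and displays peptides that come mainly from proteins of the cell itself, which the proteasome cuts and the TAP transporter carries into the endoplasmic reticulum. Class II molecules are made mainly by macrophages, dendritic cells and B cells, where the invariant chain Cd74 guides an alpha and a beta chain to the endosome, and proteases and the H2-DM molecule then exchange the invariant chain for a peptide. In liver, class I messages come from hepatocytes and other cells alike, whereas class II messages come mostly from resident immune cells.

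Estimated counts summed to between 50648778 and 90563477 per library. Counts of 4 (6450 times) and 8 (3333 times) were more frequent than their neighbours, though 1 (5104 times) and 2 (4229 times) were frequent too. Each total was divided by 4, on the assumption of 4 counts per fragment, which gave 12662194 to 22640869 fragments. The correlation of log2 CPM (counts scaled to a common library size) between libraries was 0.951 to 0.958 within HFD, 0.948 to 0.959 within HTG and 0.917 to 0.959 between the groups. Summed hepatocyte markers were at 91621 to 105954 CPM in HFD and 81349 to 95157 CPM in HTG, and every hepatocyte marker was above the limit of 3 fragments (12 counts) in each library. A count of 0 would allow up to 0.123 to 0.256 CPM. These limits rest on the assumed 4 counts per fragment and cover counting error only.

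With edgeR's quasi-likelihood test and p-values adjusted over all genes by the Benjamini-Hochberg method, none of the 9 genes passed 0.05 between HTG and HFD, where 2 of 18455 genes did (0.0108%). None of the 9 had an unadjusted p under 0.05 either, against 24.7% of all genes tested. DESeq2 called 0 of the 9 at an adjusted p under 0.05, where it called 2089 of the 29720 genes it tested. The lowest adjusted p of the 9 in DESeq2 was 0.116. In DESeq2, 2 of the 9, H2-K1 and H2-D1, had an unadjusted p under 0.05, and the share of all genes that did was not counted. The CPM of the groups did not overlap for 3 of the 9 genes (33.3%), against 32.1% of all genes tested. These were B2m, higher in HTG, and H2-K1 and H2-D1, lower in HTG. The log2 fold changes of the 5 class I genes ranged from −0.44 to 0.29 and those of the 4 class II genes from −0.12 to 0.02, and the median of all genes was 0.03.

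Levels per transcript length, in FPKM (fragments scaled to transcript length and library), differed widely among the 9 genes. B2m stood first at 1883 ± 314 FPKM (SD, n = 6 libraries of both groups), 46th of all listed genes. H2-K1 followed at 454 ± 86.2 FPKM and H2-D1 at 322 ± 63.1 FPKM. Cd74, at 75.1 ± 22.8 FPKM, was the highest of the class II genes. The beta chain genes H2-Eb1 and H2-Ab1 were at 24.7 ± 8.14 and 18.2 ± 5.65 FPKM, and the alpha chain gene H2-Aa was at 16.1 ± 5.12 FPKM. The transporter genes were lowest, Tap2 at 8.54 ± 1.38 FPKM and Tap1 at 5.51 ± 1.12 FPKM. Each gene was higher than the next one in this order in 6 of 6 libraries. The ranges over libraries overlapped for the neighbours H2-K1 and H2-D1, H2-Eb1 and H2-Ab1, H2-Ab1 and H2-Aa, and Tap2 and Tap1.

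**Figure D1:**
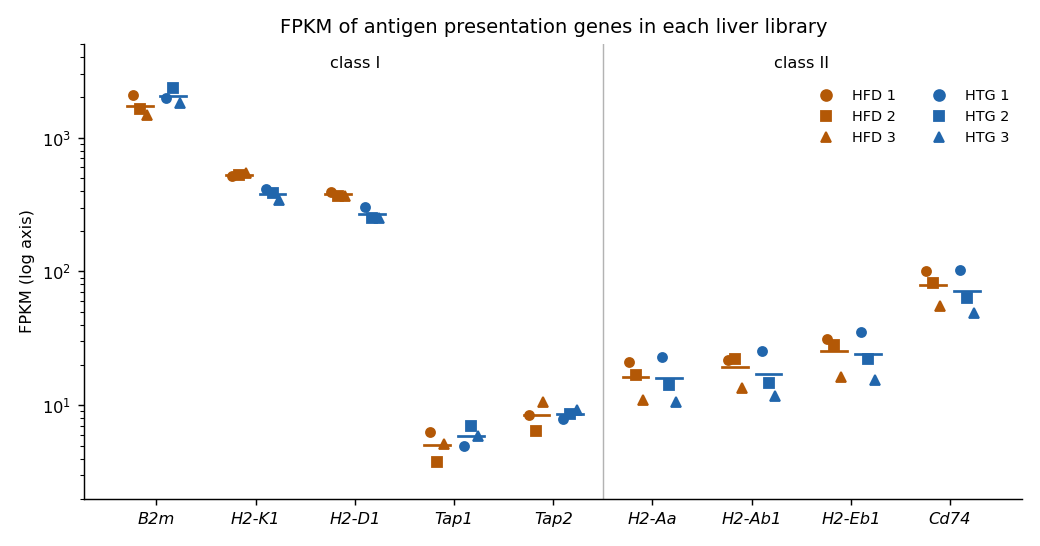
FPKM of the 9 antigen presentation genes on a log axis, with 1 point per library (HFD 1 to 3 in orange, HTG 1 to 3 in blue) and a horizontal line at each group's mean. B2m lay near 1883 FPKM and Tap1 near 5.51 FPKM on average over all 6 libraries, and the HFD and HTG points lay apart for H2-K1 and H2-D1, with HTG lower.

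B2m (ENSMUSG00000060802, chromosome 2, 121978167 to 121983564, plus strand) encodes beta-2-microglobulin, the invariant light chain of every classical class I molecule. It had 1768, 1552 and 1267 CPM in HFD 1, 2 and 3, and 1819.7, 1992 and 1803 CPM in HTG 1, 2 and 3. All 3 HTG libraries lay above all 3 HFD libraries, though HFD 1 came close to HTG 3. The group means were 1529 ± 251 CPM in HFD and 1872 ± 105 CPM in HTG (SD, n = 3 each). The log2 fold change of 0.29 ± 0.22 (SE) had a 95% interval of −0.22 to 0.80 and an adjusted p of 0.453 in edgeR. On the FPKM scale the values were 2062.52, 1630.72 and 1463.93 in HFD and 1974.17, 2341.76 and 1824.91 in HTG. There the groups overlapped, since HFD 1 exceeded HTG 1 and HTG 3.

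H2-K1 (ENSMUSG00000061232, chromosome 17, 34214991 to 34219321, minus strand) encodes the heavy chain of the classical class I molecule H2-K, which holds the peptide. Its level was 1519, 1710.2 and 1610.2 CPM in HFD and 1297, 1117 and 1148 CPM in HTG. All 3 HTG libraries were below all 3 HFD libraries, and the gap between the groups was larger than the SD of either. Mean levels were 1613 ± 95.5 and 1187 ± 96 CPM, with a log2 fold change of −0.44 ± 0.20 (SE), a 95% interval of −0.91 to 0.03 and an adjusted p of 0.226 in edgeR. The FPKM groups were also apart, at 518.68, 526.08 and 544.43 in HFD and 411.73, 384.28 and 340.1 in HTG.

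H2-D1 (ENSMUSG00000073411, chromosome 17, 35481706 to 35486475, plus strand) encodes the H2-D heavy chain and lies at the other end of the same gene complex. Its level was 1013, 1042 and 955 CPM in HFD and 843, 637 and 739.5 CPM in HTG. Again every HTG library was below every HFD library, with HTG 1 nearest to HFD. Mean levels were 1003 ± 44.4 and 740.0 ± 103 CPM, with a log2 fold change of −0.44 ± 0.21 (SE), a 95% interval of −0.91 to 0.04 and an adjusted p of 0.234 in edgeR. Without HTG 1, both H2-K1 and H2-D1 had an unadjusted p under 0.05 and neither passed the adjusted threshold. The share of all genes with an unadjusted p under 0.05 was not counted in that setting. The ratio of H2-K1 to H2-D1 in FPKM was 1.41 ± 0.0858 in HFD and 1.42 ± 0.106 in HTG.

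The light chain gene B2m was on the higher side in HTG and both classical heavy chain genes on the lower side. The FPKM of B2m divided by the summed FPKM of H2-K1 and H2-D1 was 2.26, 1.83 and 1.6 in HFD and 2.75, 3.69 and 3.09 in HTG. Every HTG ratio was above every HFD ratio, with means of 1.9 ± 0.333 and 3.18 ± 0.476. This ratio was chosen after the values of the 3 genes had been seen and is given with no test. H2-K1, H2-D1 and the other class I heavy chain genes are near-identical in places, so how the counting shared reads among them is uncertain.

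**Figure D2:**
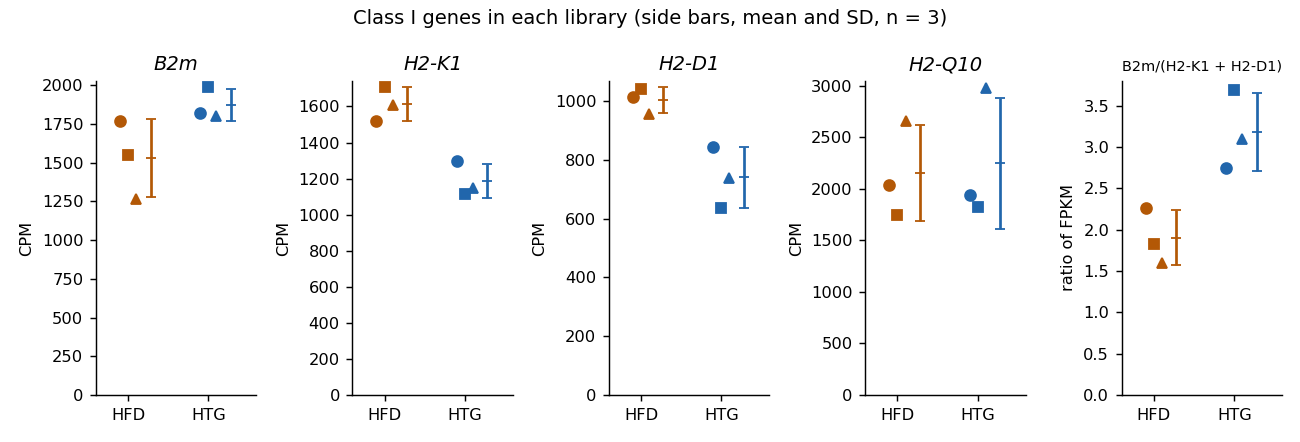
CPM of B2m, H2-K1, H2-D1 and H2-Q10, and the FPKM ratio of B2m to H2-K1 plus H2-D1, in each library (points; orange for HFD, blue for HTG), with side bars for the group mean and SD (n = 3) and every axis starting at 0. B2m and the ratio lay higher in HTG, H2-K1 and H2-D1 lay lower in HTG, and H2-Q10 overlapped between the groups.

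The class I heavy chain list held 15 further genes, all tested, of which 14 did not pass at an unadjusted p under 0.05, 1 was lower and 0 higher (median log2 fold change −0.17), where 12.4% of all genes tested were lower and 12.3% higher. The lower count was 0 without HFD 2 or HTG 2 and 2 without HFD 3 or HTG 1. The lower gene was Hfe, an atypical class I relative that takes part in iron sensing, at 60.4 ± 11.4 CPM in HFD and 37.4 ± 10.8 CPM in HTG (log2 fold change −0.69 ± 0.24, adjusted p 0.128 in edgeR). H2-Q10, which encodes a secreted class I molecule made by the liver, was expressed as highly per length as H2-K1, at 479 ± 101 FPKM over the 6 libraries. Its CPM was 2040.0, 1748 and 2658 in HFD and 1942, 1818 and 2976 in HTG. The groups overlapped, and the library with the highest value in each group was the one numbered 3. The log2 fold change of H2-Q10 was 0.06 ± 0.29, with a 95% interval of −0.59 to 0.72.

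The heavy chain total, which includes H2-K1, H2-D1, H2-Q10 and other rows such as the H2-Q and H2-T genes, overlapped between the groups. This total left out H2-M2, H2-M3, Cd1d1, Mr1, Fcgrt and Hfe of the list above. Summed over 17 heavy chain and related rows, it was 5167, 5078 and 5942 CPM in HFD and 4617, 4235 and 5492 CPM in HTG. H2-K1 and H2-D1 together made up 48.8% ± 5.52 of the estimated counts on these rows in HFD and 40.7% ± 6.02 in HTG. H2-Q10 alone made up 39.5% ± 5.16 and 46.4% ± 6.76. Both shares overlapped between the groups.

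Tap1 and Tap2 encode the paired subunits of the transporter that moves peptides into the endoplasmic reticulum, and both lie between the class I genes above on chromosome 17. Tap1 (ENSMUSG00000037321, 34406527 to 34416199, plus strand) was at 34.4, 23 and 28.5 CPM in HFD and 29.3, 37.8 and 36.9 CPM in HTG. The groups overlapped, since HFD 1 exceeded HTG 1, and the log2 fold change was 0.27 ± 0.20 (95% interval −0.18 to 0.73, adjusted p 0.426 in edgeR). Tap2 (ENSMUSG00000024339, 34422501 to 34435295, plus strand) was at 32.2, 26.8 and 40.3 CPM in HFD and 32.3, 32.1 and 39.9 CPM in HTG. Its highest value was in HFD 3 and nearly equalled by HTG 3, and the log2 fold change was 0.07 ± 0.20 (95% interval −0.38 to 0.52). Tap1 overlaps the immunoproteasome gene Psmb9 on the opposite strand by 212 bases. Tap2 overlaps the lncRNA genes Gm15821 and Gm20496 on the opposite strand, with mean counts of 37 and 0.5. The sources do not state whether the counting used the strand.

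Around the transporter, the remaining class I machinery was split. Of 6 peptide loading genes, 2 were higher, 2 were lower and 2 did not pass at an unadjusted p under 0.05, where 12.3% of all genes tested were higher and 12.4% lower. The chaperones Calr and Pdia3, both also used for other glycoproteins in the endoplasmic reticulum, had log2 fold changes of 0.79 and 0.77 (adjusted p 0.141 and 0.0979 in edgeR). Calr was at 499 ± 120.4 CPM in HFD and 863 ± 239.6 CPM in HTG, and Pdia3 at 323 ± 37.6 and 553 ± 124 CPM. The chaperone Canx and the peptide editor Tapbpl had log2 fold changes of −0.79 and −0.70 (adjusted p 0.145 and 0.102 in edgeR), from 204 ± 16.7 to 118 ± 47.1 CPM and from 26.1 ± 3.39 to 16.1 ± 3.95 CPM. Tapbp, which encodes the tapasin bridge between TAP and the heavy chain, was at 100.4 ± 6.41 CPM in HFD and 85 ± 13.5 CPM in HTG, and the groups overlapped. In DESeq2, Pdia3 alone of these 6 had an adjusted p under 0.05, where 2089 of 29720 genes did. The higher count was 1 without HFD 1, HFD 2, HTG 1 or HTG 3, and the lower count was 1 without HFD 2, HTG 2 or HTG 3.

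Of 5 genes of the immunoproteasome and its activator, 2 were higher and 3 did not pass at an unadjusted p under 0.05, with a median log2 fold change of 0.47, where 12.3% of all genes tested were higher. The higher count was 1 without HFD 2, HTG 1 or HTG 3 and in limma on filtered FPKM, and 3 without HFD 1, with upper-quartile scaling, with at least 10 counts in every library or with counts divided by 4. Psme1 and Psme2, the subunits of the activator cap, were at 94.1 ± 5.13 and 50.5 ± 6.43 CPM in HFD and at 134 ± 7.92 and 70 ± 3.03 CPM in HTG. Their log2 fold changes were 0.51 and 0.47 (adjusted p 0.108 and 0.133 in edgeR), and the groups did not overlap for either. The catalytic subunit genes Psmb8 and Psmb9 had log2 fold changes of 0.15 ± 0.16 and 0.63 ± 0.36 (adjusted p 0.576 and 0.318 in edgeR). Psmb9 was at 16.5, 8.52 and 21.5 CPM in HFD and 15.2, 28.8 and 28 CPM in HTG, so HTG 1 lay among the HFD libraries.

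**Figure D3:**
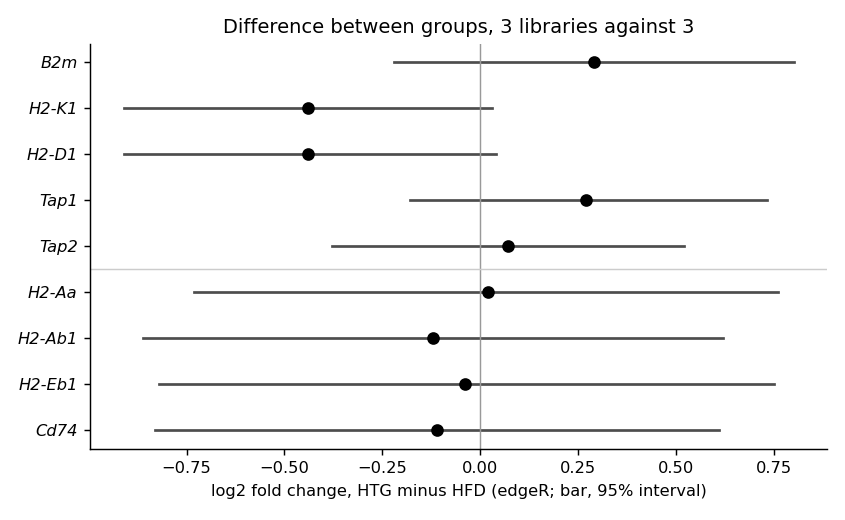
Log2 fold change of each of the 9 genes, HTG minus HFD, from edgeR (points) with its 95% interval (bars; 3 libraries per group), class I above the grey line and class II below it. Every interval crossed 0, and those of H2-K1 and H2-D1 reached only to 0.03 and 0.04 above it.

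The 4 class II genes varied more between animals of a group than between groups. The highest of the 6 libraries exceeded the lowest 2.24-fold for H2-Aa, 2.03-fold for H2-Ab1, 2.31-fold for H2-Eb1 and 1.95-fold for Cd74 in CPM, against 1.5-fold to 1.64-fold for the 5 class I genes. The same libraries were high and low for each of the 4 genes: HTG 1, HFD 1 and HFD 2 lay above, and HTG 2, HTG 3 and HFD 3 below. With 3 libraries per group, the 95% intervals of the class II genes reached up to log2 fold changes of 0.61 to 0.76 and down to −0.73 to −0.86.

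Cd74 (ENSMUSG00000024610, on chromosome 18) encodes the invariant chain, which fills the class II groove until the endosome is reached and also serves as a cell surface receptor for a cytokine. Its level was 167, 151 and 93.7 CPM in HFD and 183, 105 and 94 CPM in HTG. The lowest values of the groups were nearly equal, and the highest of all was in HTG 1. The means were 137 ± 38.8 and 127 ± 48.5 CPM, with a log2 fold change of −0.11 ± 0.32 (95% interval −0.83 to 0.61, adjusted p 0.863 in edgeR).

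H2-Aa (ENSMUSG00000036594, chromosome 17, 34501718 to 34506797, minus strand) and H2-Ab1 (ENSMUSG00000073421, chromosome 17, 34476663 to 34488393, plus strand) encode the alpha and beta chains of the I-A molecule. H2-Aa was at 79.3, 70.3 and 41.7 CPM in HFD and 93.5, 53.5 and 46.5 CPM in HTG. H2-Ab1 was at 56.3, 63.2 and 34.9 CPM in HFD and 69.9, 37.3 and 34.4 CPM in HTG. Both had HTG 1 highest and wide overlap between the groups. The log2 fold changes were 0.02 ± 0.33 (95% interval −0.73 to 0.76) for H2-Aa and −0.12 ± 0.32 (95% interval −0.86 to 0.62) for H2-Ab1. The sign for H2-Aa was negative, at −0.01, with DESeq2's size factors.

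H2-Eb1 (ENSMUSG00000060586, chromosome 17, 34524841 to 34535648, plus strand) encodes the beta chain of the I-E molecule. Its level was 61, 61.1 and 31.6 CPM in HFD and 73, 42.4 and 34.6 CPM in HTG, with the same high and low libraries as the other class II genes. The log2 fold change was −0.04 ± 0.34 (95% interval −0.82 to 0.75). Its partner alpha chain gene, H2-Ea, was not analysed here, since no row matched that symbol. The related gene H2-Eb2 was at or below 0.352 CPM in every library and did not pass the filter on low counts.

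The proportions among the class II genes varied less than their levels. H2-Eb1 stood to H2-Aa in FPKM as 1.56 ± 0.118 in HFD and 1.51 ± 0.0493 in HTG. Cd74 stood to the sum of the 3 chain genes as 1.35, 1.21 and 1.37 in HFD and 1.22, 1.24 and 1.29 in HTG, with overlapping groups. Over the 6 libraries, log2 CPM of the 6 class II pairs correlated at r of 0.95 to 0.99, a description over points that share library and depth. The 10 class I pairs ranged from −0.81, for H2-K1 and Tap1, to 0.95, for H2-K1 and H2-D1.

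**Figure D4:**
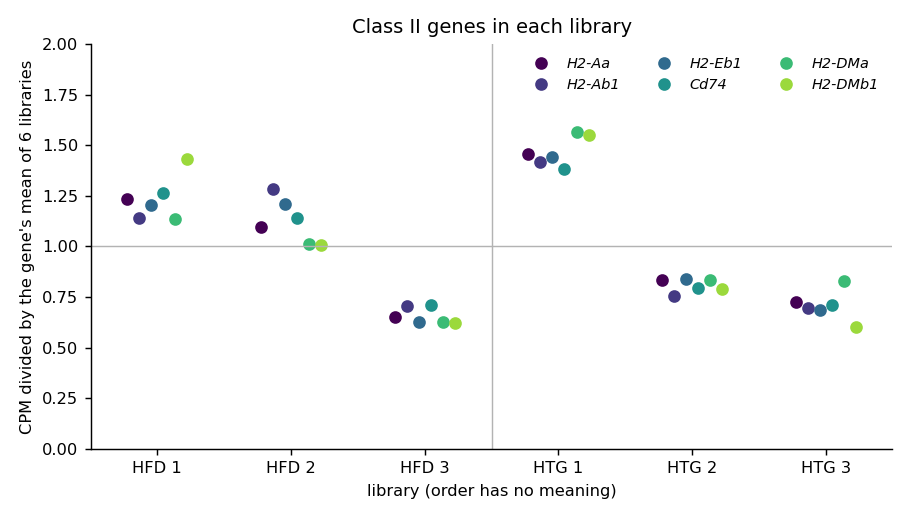
CPM of H2-Aa, H2-Ab1, H2-Eb1, Cd74, H2-DMa and H2-DMb1 in each library, divided by the gene's mean over the 6 libraries (1 point per gene, HFD left and HTG right of the vertical line). For the 4 genes from H2-Aa to Cd74, HFD 1, HFD 2 and HTG 1 lay above 1 and HFD 3, HTG 2 and HTG 3 below 1.

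Among 14361 genes with enough counts to be searched, those most like Cd74 over the 6 libraries by Pearson r of log2 CPM were Mug4-ps (0.984), Ppp3ca (0.983), Rheb (0.980), H2-DMb1 (0.978) and Zfp637 (0.971). H2-DMb1 encodes a chain of the H2-DM peptide exchanger. In all, 10 genes reached an r of at least 0.95 with Cd74 and 121 did so with B2m. The leading genes for B2m were Ccl27a (0.998), AU020206 (0.994), C230096K16Rik (0.993), Gm14586 (0.991) and Zfp945 (0.989). With 6 libraries and this many genes searched, the ranking is a description.

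The class II loading and processing list held 13 genes, of which 12 had a row and 11 were tested. At an unadjusted p under 0.05, 4 were lower, 1 was higher and 6 did not pass, with a median log2 fold change of −0.62, where 12.4% of all genes tested were lower and 12.3% higher. The lower count was 2 without HFD 1, HTG 2 or HTG 3, and the median was −0.29 without HTG 3 and −0.37 without HTG 2. The lower genes were the lysosomal proteases Ctsd, Ctss, Lgmn and Ctsb, which also degrade proteins outside the class II pathway. Ctsd was at 642 ± 88.2 CPM in HFD and 308 ± 119 CPM in HTG (log2 fold change −1.06, adjusted p 0.0834 in edgeR). Ctss, which cuts the invariant chain, was at 137, 92.2 and 103 CPM in HFD and 82.7, 48.4 and 40.2 CPM in HTG (log2 fold change −0.95, adjusted p 0.102 in edgeR). For 4 of the 11 tested, Ctss, Ctsd, Ctsb and Ctsl, every HTG library was below every HFD library, as for 15.5% of all genes tested. Ctsl did not pass at an unadjusted p under 0.05 (log2 fold change −0.63, adjusted p 0.228 in edgeR). The groups overlapped for Lgmn. Ctss and Ctsd had an adjusted p under 0.05 in DESeq2, where 2089 of 29720 genes did. Both also did in edgeR without HTG 1, a setting that called many more genes over the whole set than edgeR with all libraries.

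The class II specific members of that list had log2 fold changes in both directions. H2-DMa was at 10.1, 8.98 and 5.57 CPM in HFD and 13.9, 7.4 and 7.39 CPM in HTG (log2 fold change 0.22 ± 0.33), again with HTG 1 highest, and H2-DMb1 had a log2 fold change of −0.05 ± 0.40. H2-Ob, a chain of the H2-O molecule that restrains H2-DM, was the gene on the higher side, at 0.596 ± 0.104 CPM in HFD and 1.4 ± 0.459 CPM in HTG (log2 fold change 1.24, adjusted p 0.118 in edgeR). The level of H2-Ob was low in every library, between 0.484 and 1.9 CPM. H2-Oa, its partner chain, had the lowest log2 fold change of the list, −1.20 ± 0.65, and did not pass (adjusted p 0.296 in edgeR). H2-Oa was at 0.675, 0.825 and 0.223 CPM in HFD and 0.295, 0.276 and 0.171 CPM in HTG, so HFD 3 lay among the HTG libraries.

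**Figure D5:**
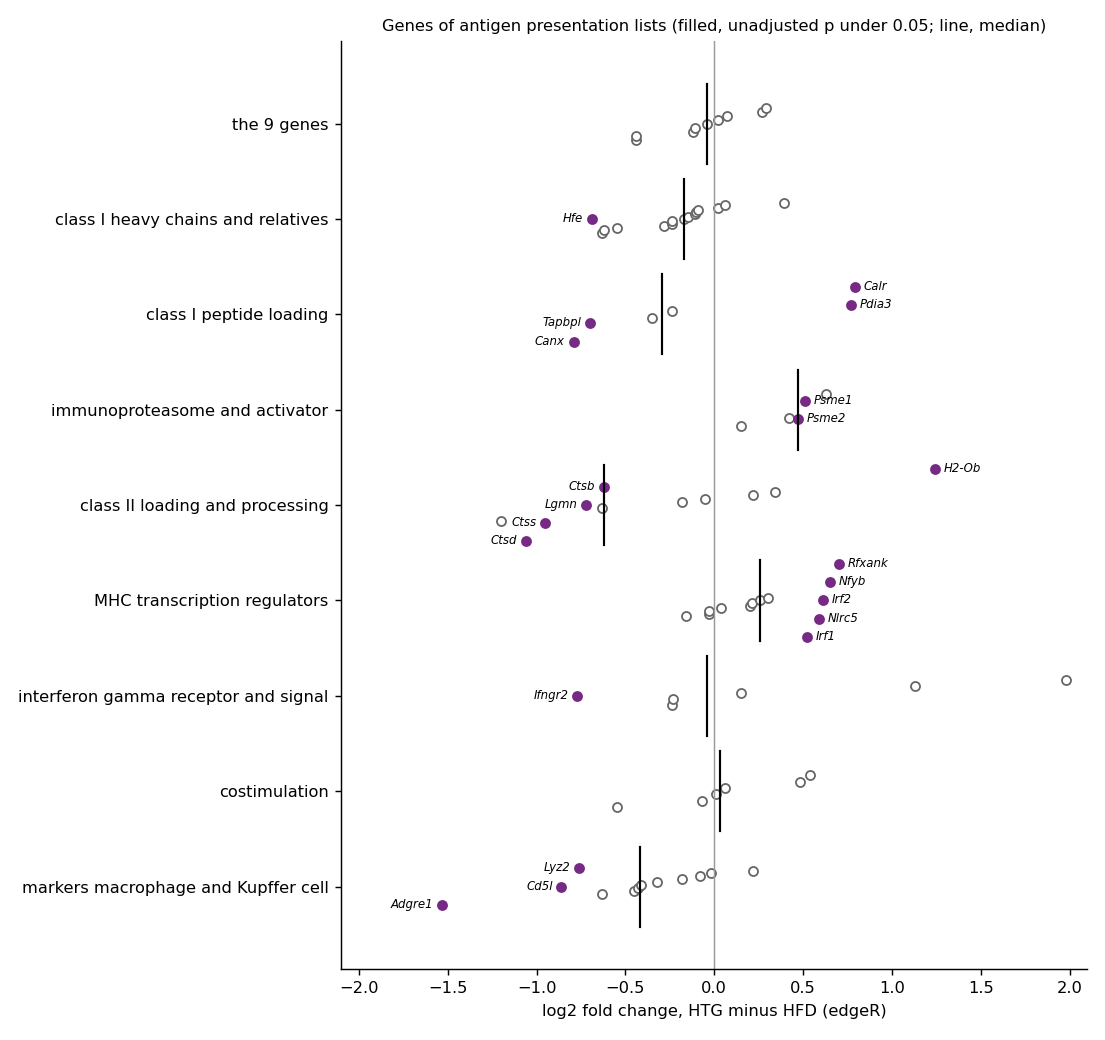
Log2 fold change, HTG minus HFD (edgeR), of each tested gene in the 9 genes and in 8 lists around them, with named filled points at an unadjusted p under 0.05, open points otherwise, and a vertical line at each list's median. The 9 genes gave no filled point, the immunoproteasome and regulator lists had filled points only on the higher side, and the macrophage marker list had them only on the lower side.

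Of 13 transcriptional regulators of MHC genes, 5 were higher, 0 lower and 8 did not pass at an unadjusted p under 0.05 (median log2 fold change 0.26), where 12.3% of all genes tested were higher and 12.4% lower. The higher count was 3 without HFD 2 or HTG 2 and in limma on FPKM without a filter. Nlrc5, the class I transactivator, was at 36, 29.5 and 39.6 CPM in HFD and 41.8, 59.8 and 56.4 CPM in HTG. All HTG libraries lay above all HFD libraries (log2 fold change 0.59 ± 0.20, adjusted p 0.121 in edgeR). Ciita, the class II transactivator, was at 2 ± 0.501 CPM in HFD and 1.96 ± 0.882 CPM in HTG, and its log2 fold change of −0.03 ± 0.41 was 0.01 with upper-quartile scaling. The other genes on the higher side were Rfxank (0.70) and Nfyb (0.65), subunits of factors that bind MHC promoters, and the interferon regulatory factors Irf2 (0.61) and Irf1 (0.52), with log2 fold changes in parentheses. Their adjusted p in edgeR were 0.0957, 0.104, 0.0833 and 0.159.

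Of 6 genes of the interferon gamma receptor and its signal, which induces both MHC classes, 1 was lower and 5 did not pass at an unadjusted p under 0.05, where 12.4% of all genes tested were lower. The lower gene was the receptor subunit gene Ifngr2, at 22.2, 17.1 and 17.6 CPM in HFD and 12.4, 8.59 and 12.4 CPM in HTG (log2 fold change −0.77 ± 0.21, adjusted p 0.078 in edgeR). Every HTG library was below every HFD library, and Ifngr2 had an adjusted p under 0.05 in DESeq2, where 2089 of 29720 genes did. At an unadjusted p under 0.05, 1 of the 6 was higher in DESeq2. So was 1 in edgeR without a low-count filter, without HTG 1 or without HTG 2. The shares of all genes higher in these settings were not counted. In DESeq2 the higher gene was Socs1, at 0.69, 0.345 and 0.223 CPM in HFD and 0.282, 0.706 and 4.06 CPM in HTG. Its log2 fold change of 1.98 ± 0.94 (adjusted p 0.235 in edgeR) ranged from 0.24 to 2.54 with 1 library left out. None of the 6 costimulation genes, which deliver the further signal that T cells need, passed in either direction at an unadjusted p under 0.05 in edgeR or DESeq2 (median log2 fold change 0.03 in edgeR), and 1 was lower without HTG 2.

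Markers of cells that carry class II molecules were read beside these values. The summed level of 12 macrophage and Kupffer cell markers was 1132 to 1939.6 CPM in HFD and 788 to 1427 CPM in HTG. The sums overlapped. Of these 12, 3 were lower at an unadjusted p under 0.05 and 9 did not pass, where 12.4% of all genes tested were lower. The lower count was 1 without HFD 1 or HTG 3, 2 without HFD 3 or HTG 2 and 5 without HFD 2. The median log2 fold change of −0.42 was −0.14 without HTG 3, −0.22 without HFD 1 and −0.28 without HFD 3. Adgre1, the F4/80 antigen of mature macrophages, was at 21.3, 17.1 and 27.8 CPM in HFD and 9.88, 7.26 and 5.76 CPM in HTG (log2 fold change −1.53 ± 0.26, adjusted p 0.0538 in edgeR). Cd5l and Lyz2 had log2 fold changes of −0.86 and −0.76, whereas Clec4f, a marker of resident Kupffer cells, had −0.08 ± 0.31. The highest of the 12 was C1qa, at 0.22 ± 0.27. In DESeq2, 3 of the 12 had an adjusted p under 0.05, where 2089 of 29720 genes did. They were Adgre1 (4.75e-05), Cd5l (0.0487) and Lyz2 (0.0482). The summed level of 4 pan-leukocyte markers was 98.3 to 113 CPM in HFD and 75.3 to 82 CPM in HTG. Among them, the lysosomal membrane gene Laptm5 had a log2 fold change of −1.35 (adjusted p 0.0538 in edgeR) and Coro1a, which binds actin, had 0.48 (adjusted p 0.122 in edgeR), each with groups that did not overlap. Ptprc, encoding CD45, and Cd53 had 0.21 and −0.22, and their groups overlapped. Laptm5 alone of the 4 had an adjusted p under 0.05 in DESeq2 (2.72e-05). Without Laptm5, a sum taken after the values were seen, the level was 57.2, 47 and 51.5 CPM in HFD and 53.5, 63.2 and 57.7 CPM in HTG, and the groups overlapped.

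Dendritic, B, T and NK cell marker sums also overlapped between the groups. Summed dendritic cell markers were at 13.1 to 21.2 CPM in HFD and 17.4 to 27.2 CPM in HTG, summed B cell markers at 16.8 to 22.6 and 16.3 to 25 CPM, and summed T and NK cell markers at 6.4 to 12.7 and 8.73 to 11.1 CPM. No marker was at or below 12 counts in every library, but 3 of 8 dendritic cell markers and 4 of 6 B cell markers were so in at least 1 library. The log2 sums of the macrophage, dendritic cell and B cell lists correlated with the log2 sum of the 4 class II genes at r of 0.34, 0.11 and −0.21 over the 6 libraries, as a description of libraries that share depth. The part of these cells in the class I, class II and protease values was not tested. In whole liver, fewer cells of a type and less RNA per cell cannot be told apart.

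Of the 9 genes, 7 lie in the 1271485 bases of chromosome 17 from H2-K1 to H2-D1, where 85 genes were tested. At an unadjusted p under 0.05, 20 of the 85 (23.5%) were higher and 4 (4.71%) were lower, against 12.3% and 12.4% of all 18455. Both directions together made up 28.2% of the 85, against 24.7% of all genes tested. The CPM of the groups did not overlap for 35.3% of the 85, against 32.1%. In limma on log2(FPKM + 0.1) with a mean FPKM of at least 1, 11 of 62 were higher and 7 lower. Their median was 0.10, where the median of all 10930 genes tested in that setting was −0.07. With 1 library left out, 14 to 23 were higher and 1 to 8 lower, the lower count being 1 without HFD 2, 2 without HTG 2 and 8 without HTG 1. The shares of all genes higher and lower were not counted in limma or with a library left out. In edgeR with all libraries, these 85 had a median log2 fold change of 0.22, and none of the 7 antigen presentation genes was among the 24. The 4 lower genes, named after their values were seen, were Apom, Hspa1b, Slc39a7 and Ppt2, with log2 fold changes from −1.14 for Apom to −0.43 for Ppt2. Their mean levels over the 6 libraries ran from 10.2 CPM for Hspa1b to 124 CPM for Apom. The 20 higher genes ran from 0.243 CPM for Sapcd1 to 93.4 CPM for Ddx39b. Many of these 20 were at low levels, H2-Ob (0.998 CPM) among them. Neighbouring rows here overlap in places, such as Slc39a7 (lower) and Gm20427 (higher) on the minus strand, so their counts are not independent.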

How the data were processed

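RNA-seq of liver was analysed in 3 HFD and 3 HTG animals, grouped by the sample titles. The authors deposited, per gene and library, an estimated count without normalisation and an FPKM value scaled by length and library. The submitters' processing notes name HISAT2, StringTie, SAMtools and the rat build mRatBN7.2, whereas the rows are mouse genes. The build of the listed coordinates and the use of strand are not given in the sources used here, and coordinates are as listed. The libraries were poly(A)-selected per the study's methods.

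Estimated counts, rounded to whole numbers by the authors, were tested with edgeR 4.0.16 in R 4.3.3 (TMM, filterByExpr, glmQLFit and glmQLFTest, group as the only term), with adjustment over 18455 genes. The smallest two-sided exact permutation p for 3 libraries against 3 is 0.1. CPM used TMM library sizes. The totals were taken as about 4 times the fragments, an assumption drawn from the frequent counts of 4 and 8. Scripts were tested on simulated counts. Alternatives were DESeq2 1.42.0, other scalings, filters, counts divided by 4, a replicate block, limma 3.58.1 on log2(FPKM + 0.1) or log2(FPKM + 1), and each library left out. No sequence is printed.

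The 9 genes, the gene lists and the marker lists were chosen with earlier results of these data known. Named were all 9, each list gene with an unadjusted p under 0.05, H2-Q10, H2-Ea, Ciita, Nlrc5, Tapbp, Psmb8, Psmb9 and H2-DMa, and the 5 genes most like Cd74 and B2m. Marker genes are named as examples. Some further list and region genes, such as Ctsl and Socs1, were named after their values were seen. The lists of sinusoidal endothelial and hepatocyte markers served as checks of the tissue. Summed endothelial markers were at 53.2 to 126 CPM in HFD and 89.5 to 141 CPM in HTG.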

Additional observations from a re-analysis of the deposited data

How the results depend on the processing

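Of the 9 genes, 0 had an adjusted p under 0.05 in every setting run. At an unadjusted p under 0.05, 2 of the 9 passed in DESeq2, 2 in limma on log2(FPKM + 0.1) and 2 on log2(FPKM + 1), and 0 to 2 with 1 library left out, the 2 being H2-K1 and H2-D1 without HTG 1. The share of all genes that passed was 24.7% in edgeR with all libraries and was not counted in these other settings, so these counts have no background beside them. Over all genes, the count at an adjusted p under 0.05 was 2 in edgeR, 2089 in DESeq2, 162 without a filter, 684 with at least 10 counts in every library, 822 with counts divided by 4, 878 and 884 in limma on log2(FPKM + 0.1) and log2(FPKM + 1), 0 in limma without a filter, and 0 to 653 with 1 library left out (653 without HTG 1). The cause of these differences was not tested.

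The 9 fold changes under 16 alternatives gave 144 values, of which 125 kept their direction and 19 reversed. H2-Aa was −0.01 in DESeq2 and with its size factors, and −0.04 in the 3 limma fits, and Ciita was 0.01 with upper-quartile scaling and 0.00 with counts divided by 4. With 1 library left out, the log2 fold change ranged from −0.39 to 0.22 for H2-Aa, −0.45 to 0.18 for H2-Eb1, −0.56 to 0.07 for H2-Ab1, −0.51 to 0.08 for Cd74, −0.07 to 0.23 for Tap2, −0.19 to 0.24 for H2-Q10, −0.43 to 0.21 for Ciita and −0.19 to 0.39 for H2-DMa. It kept its sign for B2m (0.17 to 0.41), Tap1 (0.14 to 0.43), H2-K1 (−0.55 to −0.40) and H2-D1 (−0.59 to −0.34).

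With the replicate number as a block, 0 genes passed over all genes and 0 of the 9. Same-numbered libraries correlated at −0.0779, −0.0731 and 0.101 in their deviations from the group means, and differently numbered ones at −0.121 to 0.185. HFD 3 and HTG 3 correlated best with each other, whereas libraries numbered 1 and 2 did not with their own number. Whether the numbers pair the animals cannot be told from these few values.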

Other observations

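The table's own KEGG entry for antigen processing and presentation listed 73 genes, the 9 included. Of the 66 tested, an unadjusted p under 0.05 was reached by 8 on the higher and 8 on the lower side (24.2%, against 24.7% of all genes tested), and the median log2 fold change was −0.07. Without the 9 genes, 57 were tested and the same 8 and 8 made up 28.1%, with a median of −0.09.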
